A study of Homo sapiens with 12 samples.

Results

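Sets of A549 lines were compared across the whole transcriptome: lines that carry a short hairpin RNA (shRNA) construct, and lines that carry a TIF1γ expression vector or its empty control. A549 is an established human lung adenocarcinoma line. All lines were stable and made with lentivirus. The empty vector line (vector) is the control of the line that overexpresses TIF1γ, a transcriptional cofactor and ubiquitin ligase encoded by TRIM33. The line with the control hairpin construct (sh-NC) is the control of the line in which TAF15, which encodes an FET family protein that binds RNA, was silenced (sh-TAF15). The labels list 12 samples, of which 8 had a file and entered the comparison, and 4 are not analysed here. The shRNA set holds 3 libraries (sh-NC 2, sh-TAF15 2 and sh-TAF15 3, by replicate number) and the vector and TIF1γ set holds 5 (vector 1 to 3, TIF1γ 2 and TIF1γ 3). Construct type, line derivation and any difference in culture or library preparation run along the same division, so they cannot be told apart. The labels describe the replicates of each group as biological but do not tie them to separate infections or cultures. The p-values therefore measure the spread between these samples, which may be technical. Because each set pools different lines, the differences between the lines of a set also enter this spread. The libraries are not replicates of a single line.

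A549 cells are known for constitutive activity of NRF2, the transcription factor that drives antioxidant and detoxifying genes, because its inhibitor KEAP1 is mutated in the line. They also express liver-type secreted proteins and hepatocyte nuclear factors, and they can shift between epithelial and mesenchymal states. GPX2, HNF4A, FPR1 and IL6 were taken to mark the difference between the sets. GPX2 encodes a glutathione peroxidase and is a classical NRF2 target, HNF4A encodes a nuclear receptor of endoderm-derived tissues, FPR1 encodes the formyl peptide receptor of phagocytes, and IL6 encodes an inflammatory cytokine.

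The promoters of these 4 genes are shown because they are the markers by which the sets were described. Each runs 5′ to 3′ on the coding strand from 250 bases before to 50 bases after the start site, from RefSeq on GRCh38.p14. The windows are chr14:64942696-64942995 on the minus strand for GPX2, chr20:44355449-44355748 on the plus strand for HNF4A, chr19:51751829-51752128 on the minus strand for FPR1, and chr7:22726950-22727249 on the plus strand for IL6. Capitals mark matches to searched motifs.
GPX2: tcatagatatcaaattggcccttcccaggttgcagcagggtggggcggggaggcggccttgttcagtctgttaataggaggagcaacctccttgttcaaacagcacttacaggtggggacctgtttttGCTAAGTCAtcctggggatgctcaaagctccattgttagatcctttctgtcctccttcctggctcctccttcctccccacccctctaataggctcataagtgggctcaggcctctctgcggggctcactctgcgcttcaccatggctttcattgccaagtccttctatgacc
HNF4A: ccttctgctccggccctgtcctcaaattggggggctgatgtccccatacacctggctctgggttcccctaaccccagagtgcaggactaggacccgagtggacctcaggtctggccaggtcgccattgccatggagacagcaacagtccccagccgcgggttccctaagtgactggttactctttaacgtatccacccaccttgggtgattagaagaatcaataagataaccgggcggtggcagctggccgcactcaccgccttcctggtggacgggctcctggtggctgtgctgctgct
FPR1: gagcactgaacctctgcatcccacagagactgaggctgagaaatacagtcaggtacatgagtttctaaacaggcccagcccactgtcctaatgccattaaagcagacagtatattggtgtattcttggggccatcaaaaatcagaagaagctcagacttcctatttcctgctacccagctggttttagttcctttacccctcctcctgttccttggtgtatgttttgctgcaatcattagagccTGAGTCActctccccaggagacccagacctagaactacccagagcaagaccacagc
IL6: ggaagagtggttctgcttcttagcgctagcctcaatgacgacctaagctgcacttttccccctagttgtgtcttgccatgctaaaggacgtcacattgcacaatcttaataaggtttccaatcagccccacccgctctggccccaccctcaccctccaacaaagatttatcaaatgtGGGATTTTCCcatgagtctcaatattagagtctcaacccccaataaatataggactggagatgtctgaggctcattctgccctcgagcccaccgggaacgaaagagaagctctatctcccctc

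Motifs were searched on both strands. They were the antioxidant response element core TGACNNNGC, the AP-1 element TGANTCA, the HNF4 core CAAAGTCCA, and, by name alone, the NF-kB element and the HNF1 palindrome. The GPX2 promoter held GCTAAGTCA, the antioxidant response element core read on the opposite strand, starting 122 bases before the start site. The IL6 promoter held GGGATTTTCC starting 73 bases before the start site, and the FPR1 promoter held TGAGTCA starting 6 bases before it. The HNF4A window held no match to these motifs, and only the printed start site was searched. Among all 27305 promoters of the same length, 13.6% held the antioxidant core, 7.76% the AP-1 element and 0.579% the NF-kB element. The HNF4 core stood in 0.359% and the HNF1 palindrome in 0.00366%. Patterns this strict seldom match, so the missing match in the HNF4A window does not show that such sites are absent. The antioxidant core stood in 15.9% of the promoters of genes called higher in the shRNA set, 14.8% of those called lower and 15.1% of those not called.

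Levels are given as FPKM, fragment counts corrected for transcript length and for the number of mapped fragments, in the order vector 1, 2 and 3 and TIF1γ 2 and 3, then sh-NC 2 and sh-TAF15 2 and 3. Differences are shRNA minus vector and TIF1γ on the scale of log2(scaled FPKM + 1), which understates the change of low genes. A call is an adjusted p under 0.05 from limma with Benjamini-Hochberg adjustment over the 13907 genes tested. The targeted gene TRIM33 stood at 2.23, 2.10, 1.27, 8.03 and 6.14, then 3.46, 2.80 and 2.73 FPKM. Its level was highest in both TIF1γ libraries, as their label says, and the sets overlapped (difference −0.25, SE 0.38, adjusted p 0.643). No identifier in the files was matched to the name TAF15, so that silencing is not checked here.

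GPX2 transcripts were abundant in every vector and TIF1γ library and nearly gone in every shRNA library. The levels were 658, 677, 1008, 1423 and 1137 FPKM against 0.0758, 1.89 and 2.01. The sets did not overlap, and the difference was −8.94 (SE 0.33, adjusted p 2.27e-09), the largest among all named genes. HNF4A showed the same direction at a lower level, with 5.21, 3.89, 7.06, 7.12 and 6.36 FPKM against 0, 0.0676 and 0.0202. Its difference was −2.79 (SE 0.23, adjusted p 2.50e-06), again without overlap.

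FPR1 went the other way. It was listed at 0 in 4 of the 5 vector and TIF1γ libraries and at 0.0284 FPKM in vector replicate 3, while the shRNA libraries had 16.8, 14.3 and 20.1 FPKM. The difference was 4.04 (SE 0.20, adjusted p 3.07e-08). IL6 stood at 0.301, 0.226, 0.674, 0.645 and 0.737 FPKM against 24.7, 6.67 and 11.3, with the highest level in the hairpin control. Its difference was 3.02 (SE 0.33, adjusted p 2.74e-05). HNF4A lies in a stretch of chromosome 20 where the median of 40 neighbouring genes was also lower, described further on. All 4 markers kept their call under every alternative fitted. They were taken as markers of this difference and the alternatives refit the same libraries, so this is not separate support.

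**Figure D1:**
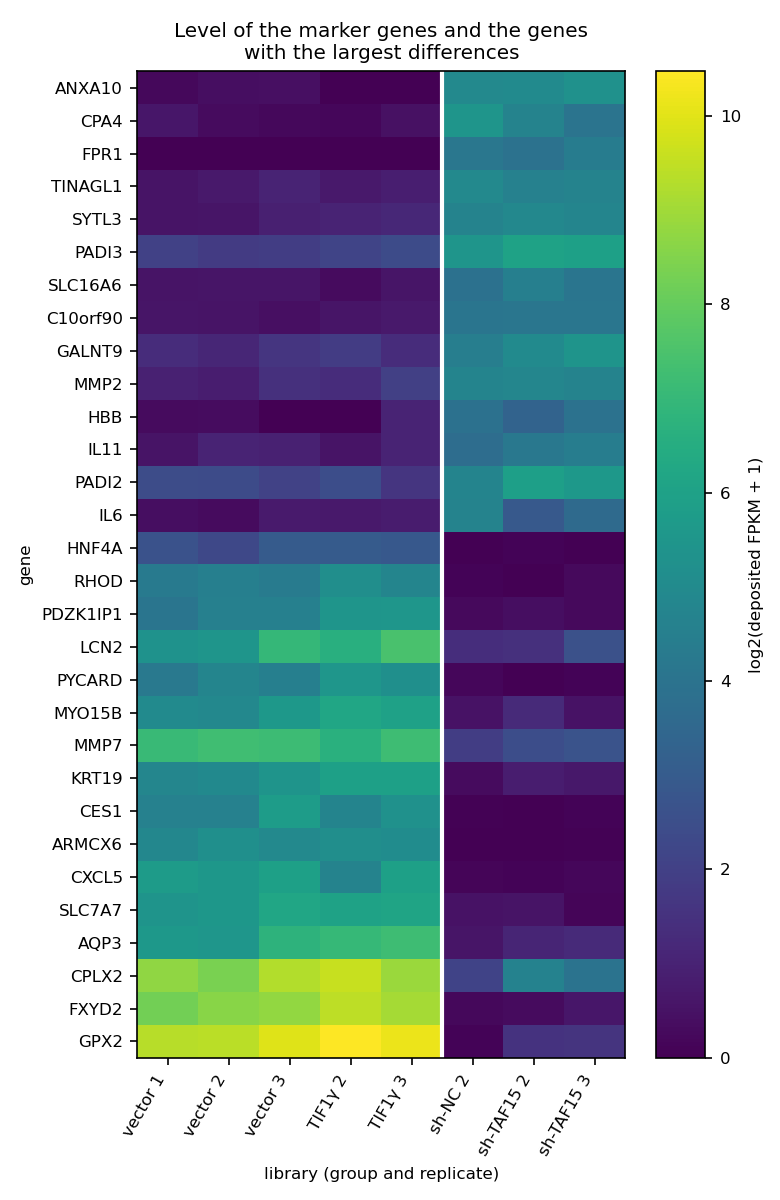
Level of the 4 markers and of the genes named for the largest difference in each direction (rows) in the 8 libraries (columns), as log2(deposited FPKM + 1) by colour; the white line divides the 5 vector and TIF1γ libraries from the 3 shRNA libraries. GPX2 reads 1423 FPKM in TIF1γ replicate 2 and 0.0758 in sh-NC replicate 2. The change of colour at the white line follows from the choice of rows. They are markers of this difference and genes picked among those without overlap.

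Across the transcriptome, 4089 of 13907 genes (29.4%) were called, 1781 higher (12.8%) and 2308 lower (16.6%) in the shRNA set. In 4720 genes (33.9%) every library of one set lay above every library of the other, 2198 with the shRNA set on top (15.8%) and 2522 with it below (18.1%). Both conditions held for 3613 genes (26.0%), 1553 higher (11.2%) and 2060 lower (14.8%). The gap between the nearest libraries of the sets reached at least 8-fold on this scale in 9 genes higher and 35 lower. A further view is presence against absence: 23 genes were under 0.1 FPKM in all 5 vector and TIF1γ libraries and at least 1 FPKM in all 3 shRNA libraries, and 40 genes had the opposite pattern. The split by direction depends on the scaling. With the deposited FPKM left unscaled, 3054 genes were higher and 1657 lower, so that 64.8% of calls were higher instead of 43.6%, and the median difference of all genes moved from 0.01 to 0.17. The number of calls also rests on single libraries: without sh-NC replicate 2 there were 786 higher and 1293 lower, without sh-TAF15 replicate 2 there were 774 and 1338, and without TIF1γ replicate 3 there were 1153 and 1783.

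**Figure D2:**
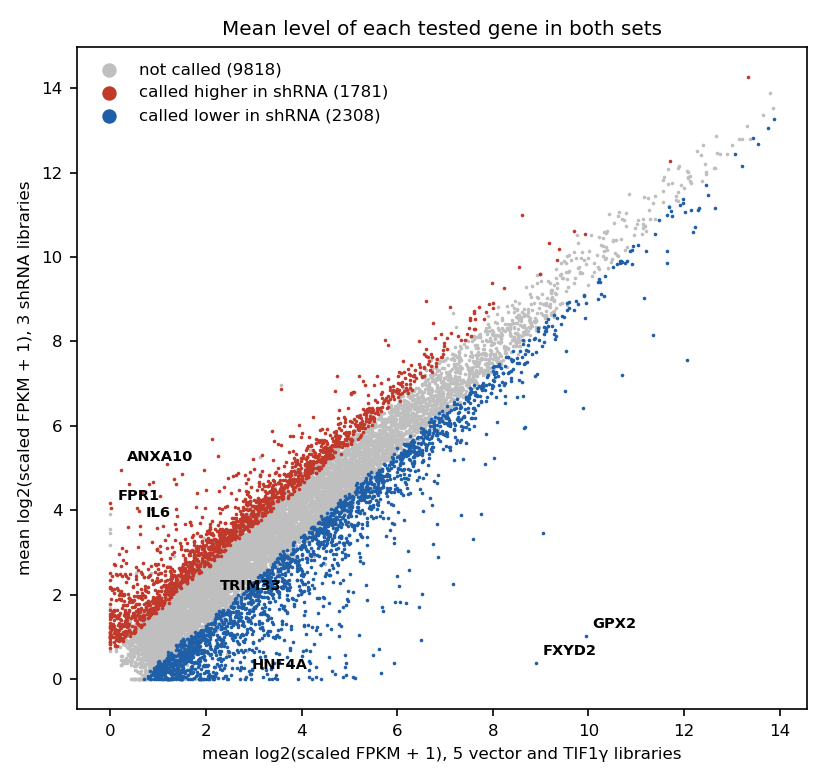
Mean log2(scaled FPKM + 1) of each tested gene in the 5 vector and TIF1γ libraries (x axis) and the 3 shRNA libraries (y axis), with genes called higher in red (1781), called lower in blue (2308) and not called in grey. The cloud of lower genes reaches farther from the diagonal, out to GPX2 and FXYD2.

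Libraries of different sets differed more than libraries of the same set, with overlap. Over all tested genes, the median absolute log2 difference was 0.206 to 0.386 in the 5 pairs from the same group, 0.220 to 0.580 in the 8 pairs from different groups of the same set, and 0.337 to 0.915 in the 15 pairs from different sets. TIF1γ replicate 2 stood farthest from the shRNA libraries, and was also the most distant inside its own set. The first principal component carried 61.5% of the variance, with the 3 shRNA libraries on one side of 0 and the other 5 on the other side.

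**Figure D3:**
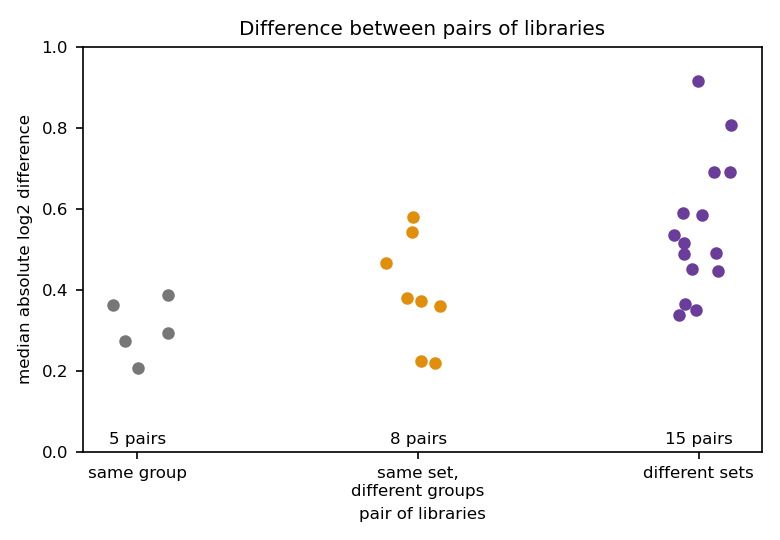
Median absolute log2 difference over all tested genes (y axis) for each pair of libraries (points), grouped by whether the pair comes from the same group, the same set or different sets. Pairs from different sets reach 0.915 and start at 0.337, inside the range of the other pairs.

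The genes with the largest differences on the lower side had 15.9 FPKM (PDZK1IP1) or more in every vector and TIF1γ library. FXYD2, a regulatory subunit of the sodium pump, had 299, 394, 444, 684 and 541 FPKM against 0.183, 0.247 and 0.564 (difference −8.53, SE 0.24, adjusted p 1.11e-10). CPLX2, a complexin that acts in vesicle fusion, had 432, 331, 614, 774 and 472 FPKM against 3.27, 24.0 and 14.8. AQP3, a water and glycerol channel, had 47.6, 44.6, 108, 128 and 148 FPKM against 0.518, 1.12 and 1.37. None of these 3 genes overlapped between the sets. KRT19, a keratin of simple epithelia, had 26.9 to 61.7 FPKM against 0.243 to 0.775. CXCL5, a neutrophil chemokine, had 25.1 to 61.7 FPKM against 0.0784 to 0.136. MMP7, the matrilysin protease, had 99.3 to 153 FPKM against 2.79 to 5.37. The remaining genes named by size were SLC7A7, ARMCX6, CES1, MYO15B, PYCARD, LCN2, PDZK1IP1 and RHOD, with differences between −5.56 and −4.58. PYCARD, the inflammasome adaptor ASC, was at 17.9 to 44.4 FPKM in the vector and TIF1γ libraries and at most 0.152 in the shRNA libraries.

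Genes on the higher side started from a low level in the vector and TIF1γ libraries. ANXA10, a calcium-dependent membrane-binding annexin, had 0.159, 0.320, 0.330, 0 and 0 FPKM against 29.8, 31.0 and 38.4 (difference 4.74, SE 0.22, adjusted p 1.70e-08). CPA4, a secreted carboxypeptidase, had 0.541, 0.222, 0.169, 0.145 and 0.390 FPKM against 43.5, 24.7 and 15.6. Among them were 2 peptidylarginine deiminases, enzymes that turn arginine into citrulline in proteins: PADI3 had 2.57 to 4.32 FPKM against 43.1 to 63.8, and PADI2 had 2.06 to 4.5 against 25.2 to 59.5. MMP2, a gelatinase, had 0.788 to 2.94 FPKM against 24.8 to 26.9. IL11, a cytokine of the IL6 family, had 0.449 to 1.09 FPKM against 12.4 to 20.9. TINAGL1, SYTL3, SLC16A6, C10orf90, GALNT9 and HBB were also higher by 3.25 to 3.80.

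The antioxidant and detoxifying genes were mostly lower in the shRNA set. Of 37 tested NRF2 targets, 21 were called lower and 1 higher, beside 16.6% and 12.8% of all genes. Their median difference was −0.70 beside 0.01 over all genes. Without sh-NC replicate 2 the lower count was 12, and without sh-TAF15 replicate 2 or without scaling it was 13. The aldo-keto reductases, which reduce carbonyls and steroids, moved farthest after GPX2. AKR1C2 had 3489.9, 3939, 4421, 4465 and 4118 FPKM against 125, 264 and 262 (difference −4.50, SE 0.24, adjusted p 4.88e-08), and AKR1C3 had 1374 to 1757 against 136 to 203. AKR1C1 and AKR1B10 differed by −3.47 and −3.21. These family members are close in sequence, so how the authors' counting divided reads between them is uncertain. NQO1, the quinone reductase most used as an NRF2 readout, stayed abundant on both sides, with 3931 to 5960.5 FPKM against 1555 to 2238 (difference −1.52, SE 0.19, adjusted p 6.76e-05). SLC7A11, the cystine transporter, was the member called higher, with 8.37, 8.20, 10.0, 3.01 and 9.0 FPKM against 26.3, 17.1 and 13.0 (adjusted p 0.0444), and the call was lost in 10 of 20 alternatives. TXNRD1, a thioredoxin reductase, had 463, 374, 379.6, 208 and 277 FPKM against 543, 499 and 333, with overlap and no call. NFE2L2, which encodes NRF2, and KEAP1 were not called (adjusted p 0.681 and 0.773). FTL, the ferritin light chain, was listed at 0 in all 5 vector and TIF1γ libraries and at 14969.6, 21770.2 and 33399 FPKM in the shRNA libraries. A zero for so abundant a transcript can be a failed estimate, so FTL was set aside from the tests. Other drug-metabolising genes were lower as well: 18 of 28 in the xenobiotic list were called lower and 1 higher. SULT2B1, a sterol sulfotransferase, had 40.9 to 108 FPKM against 1.27 to 4.83. UGT2B7, a glucuronosyltransferase, was the exception, with 0.115 to 0.434 FPKM against 6.93 to 8.61 (difference 2.71, SE 0.20, adjusted p 8.44e-07).

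Liver-type and endoderm genes were mostly lower, where 16.6% of all genes were called lower and 12.8% higher. Of 16 tested genes for hepatocyte-type plasma proteins, 11 were called lower and 0 higher by limma (0 higher also at an unadjusted p under 0.05), and the median difference was −2.47. FGA, the fibrinogen alpha chain, had 13.4, 10.3, 22.4, 14.4 and 24.8 FPKM against 0.329, 0.449 and 0.219 (difference −3.79, SE 0.29, adjusted p 1.29e-06). FGB and APOH, the fibrinogen beta chain and beta-2-glycoprotein I, differed by −3.42 and −3.33. Among 12 tested endoderm transcription factors, 7 were called lower and 1 higher. Besides HNF4A, the lower ones included the pioneer factor FOXA1, with 5.25 to 10.3 against 1.48 to 1.87. PPARG, the lipid-sensing nuclear receptor, was the one called higher (difference 0.68, SE 0.20, adjusted p 0.0235), and its call was lost in 4 of 20 alternatives, those without sh-TAF15 replicate 2 and without sh-TAF15 replicate 3 among them.

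Epithelial and mesenchymal genes mostly moved in opposite directions, where 12.8% of all genes were called higher and 16.6% lower. Of 18 tested epithelial genes, 11 were called lower and 0 higher by limma (0 higher at an unadjusted p under 0.05), with a median of −1.07. ELF3, an epithelial transcription factor, had 287, 321, 339, 632 and 429.6 FPKM against 48.1, 77.1 and 82.6. TJP3, a tight junction scaffold, had 10.1 to 26.6 FPKM against 0.272 to 1.53. CDH1, which encodes E-cadherin and is named here after its values were seen, had 5.81, 4.27, 10.4, 8.29 and 10.9 FPKM against 0.857, 6.96 and 6.0, with overlap and no call (adjusted p 0.0830). KRT8 and KRT18, the keratin pair of simple epithelia, were listed at 0 in both TIF1γ libraries and at 4561 FPKM or more in the vector libraries, and were set aside in the same way as FTL.

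Of 29 tested mesenchymal genes, 18 were called higher and 3 lower, beside 12.8% and 16.6% of all genes, and the median was 0.85. SNAI2, the repressor Slug, had 0, 0.0545, 0.104, 0 and 0.0587 FPKM against 5.23, 2.15 and 3.23 (difference 1.97, SE 0.24, adjusted p 6.04e-05). COL5A1, a fibrillar collagen chain, had 1.21 to 2.15 FPKM against 10.6 to 17.5. Not every member followed. FN1, the gene for fibronectin, was lower, with 81.1, 106, 153, 109 and 237 FPKM against 28.0, 56.5 and 71.0 (difference −1.58, SE 0.35, adjusted p 0.00533), and TWIST2, a basic helix-loop-helix factor, was lower by −1.45. VIM, which encodes vimentin and is named here after its values were seen, had 589 to 801 FPKM against 1022 to 1243 without overlap in these deposited values, and missed the call (adjusted p 0.0620).

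Matrix and adhesion genes went in both directions, with more of them higher, where 12.8% of all genes were higher and 16.6% lower. Of 31 tested matrix and basement membrane genes, 14 were higher and 7 lower, with 9 higher without sh-NC replicate 2 and 8 without sh-TAF15 replicate 2. COL4A1, a chain of basement membrane collagen, had 3.26, 2.24, 3.07, 2.65 and 2.52 FPKM against 29.5, 37.6 and 30.9 (difference 2.99, SE 0.21, adjusted p 5.64e-07), while COL4A6, another chain of that family, had 1.51 to 2.85 against 0.0796 to 0.357. FBLN1, the matrix glycoprotein fibulin, was higher by 2.12 and LAMB2, a laminin chain, lower by −1.06. Of 13 tested integrins, 5 were higher and 3 lower, or 4 and 1 with the GC trend removed, with 3 higher without vector replicate 2 or sh-NC replicate 2 and 2 without sh-TAF15 replicate 2. ITGB4, the partner of the alpha-6 chain in hemidesmosomes, had 24.9 to 50.9 FPKM against 101 to 176.

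Inflammatory mediators were mostly lower, with exceptions. Of 24 tested cytokines and chemokines, 17 were called lower and 3 higher, beside 16.6% and 12.8% of all genes, with a median of −1.69. The 3 higher genes were IL6, IL11 and CCL26, an eotaxin with 3.45 to 6.48 FPKM against 13.8 to 49.0. On the lower side, CXCL1, a neutrophil chemokine, had 82.3, 114, 106, 104 and 143 FPKM against 5.14, 6.07 and 10.6 (difference −3.96, SE 0.24, adjusted p 1.19e-07). CCL2, the monocyte chemokine, had 86.4 to 126 FPKM against 11.4 to 14.5. FPR1 stood among 17 tested G protein-coupled receptors of which 3 were higher and 4 lower, close to the shares of all genes (12.8% and 16.6%), or 4 and 2 with the GC trend removed. F2RL1, a protease-activated receptor, was also higher, with 14.1 to 23.4 FPKM against 49.3 to 60.4. Interferon-stimulated genes had 7 higher and 4 lower of 31, beside 12.8% and 16.6% of all genes, with 3 higher without sh-NC replicate 2 and 2 without sh-TAF15 replicate 2. IFI44 was higher, with 0 to 0.367 FPKM against 1.27 to 2.75, and ISG20, an RNA exonuclease, was lower, with 15 to 30.5 against 2.46 to 3.26. In the antigen presentation list, 3 of 18 were higher and 5 lower, beside 12.8% and 16.6% of all genes, and 2 or 3 were lower without any 1 of vector replicate 3, TIF1γ replicates 2 and 3 or the shRNA libraries. The balance turned to 4 higher and 2 lower with the GC trend removed, where the median was 0.18 in place of −0.11, and it was 3 and 3 without scaling. B2M, the light chain of MHC class I, had 609 to 971 FPKM against 1466 to 1914.

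Signalling genes were divided as well, as were all genes, with 12.8% higher and 16.6% lower. Of 27 tested receptor tyrosine kinases and ligands, 7 were higher and 8 lower, or 9 and 7 without scaling, with 2 higher without sh-NC replicate 2 and 4 without sh-TAF15 replicate 2. The EGFR ligands TGFA and HBEGF were higher, TGFA with 0.983 to 2.03 FPKM against 7.69 to 11.2. The receptors FGFR4 and FGFR1 were lower, FGFR1 with 45.6 to 83.5 FPKM against 20.9 to 28.9. In the list of ERK feedback and AP-1 genes, 6 of 27 were higher and 7 lower, with 4 lower without sh-TAF15 replicate 2. The balance turned to 8 higher and 4 lower with the GC trend removed, and to 8 and 5 without scaling. FOSL2, an AP-1 subunit, had 6.92, 5.09, 12.9, 9.70 and 12.4 FPKM against 53.4, 78.2 and 59.4 (difference 2.50, SE 0.29, adjusted p 3.91e-05). JUND and FOS, further subunits, were lower by −2.20 and −1.28. In the TGF-beta and BMP list, 11 of 31 were higher and 7 lower, with 7 higher without sh-NC replicate 2. INHBB, an activin subunit, had 59.2, 61.8, 54.6, 61.7 and 62.6 FPKM against 4.01, 4.63 and 6.06, a difference of −3.56 (SE 0.19, adjusted p 4.72e-08). BMP7, a bone morphogenetic protein, had 2.03 to 3.73 FPKM against 8.60 to 14.9.

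The metallothioneins, small proteins that bind zinc and copper, separated within the family. MT2A had 279, 356, 275, 655 and 397 FPKM against 2206, 1714 and 2886 (difference 2.38, SE 0.26, adjusted p 2.39e-05). MT1X and MT1B were higher too, by 1.10 and 2.11. MT1F had 11.0, 17.0, 14.9, 23.3 and 20.3 FPKM and MT1A had 2.90, 2.43, 2.40, 3.49 and 3.69, and both were listed at 0 in all 3 shRNA libraries. These genes are similar in sequence, so the division of reads between them is uncertain.

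Proliferation and stress genes were read against the shares of all genes, 12.8% higher and 16.6% lower. S phase genes were higher in 13 of 39 and lower in 0 by limma (0 lower at an unadjusted p under 0.05), but 1 was higher without sh-NC replicate 2, 1 without sh-TAF15 replicate 2 and 4 without TIF1γ replicate 3. MCM10, a replication initiation factor, had 4.46, 3.23, 1.61, 1.47 and 1.11 FPKM against 15, 9.47 and 7.19 (difference 1.65, SE 0.34, adjusted p 0.00365). G2 and mitosis genes were higher in 9 of 40 and lower in 2, or 14 and 0 without scaling, with 0 higher without sh-NC replicate 2, 1 without sh-TAF15 replicate 2, 2 without TIF1γ replicate 3, and 5 without any 1 of vector replicate 3, TIF1γ replicate 2 or sh-TAF15 replicate 3. Among p53 targets, 9 of 27 were higher and 1 lower. CCNG1, a cyclin, had 13.4 to 36.1 FPKM against 112 to 141, and GDF15, a stress cytokine, was the lower one, with 259.7 to 489 against 88.2 to 221. Genes that answer protein misfolding or amino acid shortage were lower in 9 of 30 and higher in 1, and lower in 5 without sh-TAF15 replicate 2. XBP1, a transcription factor of the unfolded protein response, was lower, with 63.4 to 154 FPKM against 31.7 to 41.6. Cholesterol synthesis genes were lower in 6 of 24, and in 3 without sh-NC replicate 2 or with the GC trend removed. FDFT1, the squalene synthase, had 133 to 244 FPKM against 87.3 to 103. In the glycolysis and hypoxia list, 2 of 29 were higher and 6 lower, or 4 and 5 with the GC trend removed. It held ALDOC, an aldolase called lower, at 12.1 to 21.5 FPKM against 1.48 to 1.53. Ribosomal protein genes were lower in 12 of 52 and higher in 3, with 0 lower without sh-NC replicate 2 and 1 without sh-TAF15 replicate 2. The balance of ribosomal calls turned once a trend on GC content was removed, with 3 lower and 8 higher and a median of −0.06 in place of −0.35. It also turned without scaling, with 2 lower and 5 higher. The contrast of sh-NC with vector rests on 1 sh-NC library. Its median differences were −0.31 for ribosomal protein genes, 0.41 for G2 and mitosis genes and 0.25 for S phase genes. In the contrast of sh-TAF15 with TIF1γ, the medians of these lists were −0.36, 0.84 and 0.75. The medians of both proliferation lists were thus larger between the manipulated lines. Mitochondrially encoded mRNAs had 1 higher and 1 lower of 13.

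**Figure D4:**
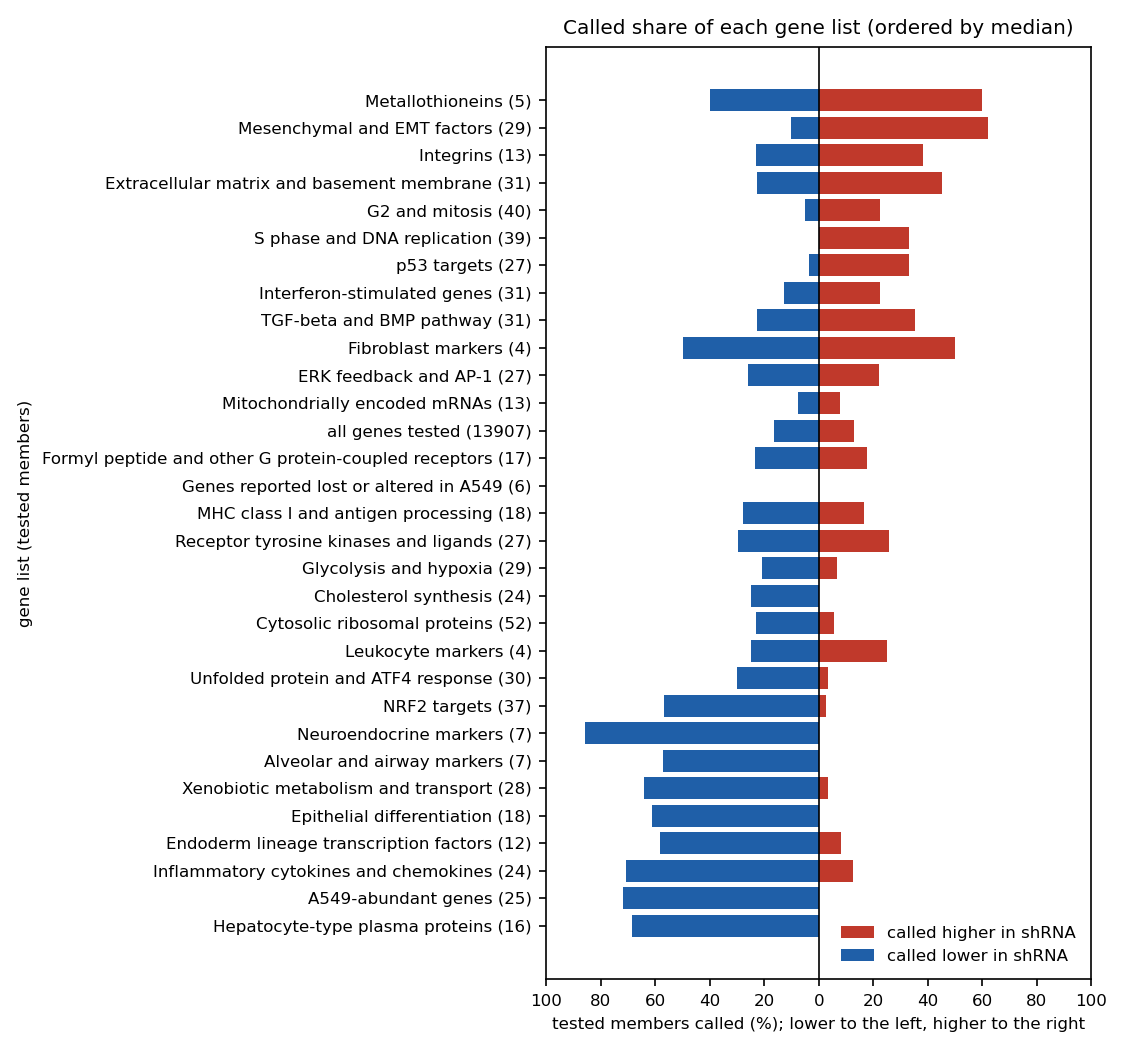
Share of tested members of each gene list (number in brackets) called higher (red, right) or lower (blue, left) in the shRNA set, in percent, ordered by the median log2 difference, with all 13907 genes as a row of its own. Hepatocyte-type plasma proteins have the lowest median (−2.47) and metallothioneins the highest (1.10).

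Genes that define A549 were examined because the sets differ so widely. CDKN2A, deleted in this line, was at 0 in 6 of 8 libraries, at 0.0611 FPKM in TIF1γ replicate 3 and at 1.9 in sh-TAF15 replicate 3. CDKN2B, its neighbour, was at most 0.206 FPKM, and MTAP, also next to it, was between 0.153 and 0.596 in every library. Among 25 tested genes known to be abundant in A549, 18 were called lower in the shRNA set, beside 16.6% of all genes. By limma 0 were higher (0 higher at an unadjusted p under 0.05). The list was chosen with earlier results of these data known. Some members, such as GPX2, AKR1C2, FGA and KRT19, were already counted in the lists above. The summed level of the list, with the 2 members set aside, KRT8 and KRT18, included, was 26102 to 35120.5 FPKM against 11538 to 17149. Each of these 2 was at 4561 FPKM or more in the vector libraries, 0 in both TIF1γ libraries and 1129 to 2235 in the shRNA libraries. The sum thus rests in part on values that can be failed estimates. Members that were not called included KRT7, a simple keratin, with 1764 to 3746 FPKM against 1516 to 1922, and ALDH1A1, a retinal dehydrogenase, with 782 to 1354 against 1165 to 1847. Among genes reported as lost or altered in A549, STK11, KEAP1, SMARCA4 and NFE2L2 were not called, and their directions changed between settings. The labels give no cell line authentication, and the identity of the lines was not tested beyond these genes.

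Markers of other cells were mostly under the filter. Their calls stand beside 12.8% higher and 16.6% lower of all genes. Of 26 alveolar and airway markers, 7 were tested and 4 were lower, and the summed level was 139 to 216 FPKM against 9.88 to 34.1, the greater part of it from AGR2, a protein disulfide isomerase of secretory cells. SFTPA1, SLC34A2, HOPX, AQP5, SCGB1A1 and SCGB3A2 were listed at 0 in all 8 libraries. The fibroblast list summed to 3650 to 6290 FPKM against 1484 to 1994, mostly S100A4, which was called lower. Of its 4 tested members, 2 were lower and 2 higher, and the higher ones were the collagen chains COL1A1 (difference 1.29, SE 0.23, adjusted p 0.00129) and COL1A2 (difference 1.24, SE 0.20, adjusted p 0.000672). The leukocyte list summed to 38.8 to 89.4 against 30.1 to 37.9, and of its 4 tested members 1 was lower and 1 higher, the integrin chain ITGAM (difference 0.72, SE 0.24, adjusted p 0.0407), whose call was lost in 12 of 19 alternatives. The neuroendocrine list summed to 1147 to 1528 FPKM against 750.3 to 1059, mostly UCHL1, and 6 of its 7 tested members were lower, or 3 with the GC trend removed. In bulk RNA, fewer cells of a type and less RNA per cell cannot be told apart, and the part of other cells in these differences was not tested.

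Base composition moved with the comparison. Among protein-coding genes, those called higher had a median transcript GC content of 43.1%, those called lower 57.3% and those not called 48.0%. The median difference fell in steps from 0.49 under 40% GC to −0.55 over 60% GC. With the trend on GC content and length removed from each library, the medians of the GC classes lay between −0.01 and 0.05, and 2753 of the 4089 calls (67.3%) were kept with 0 in the opposite direction. The list medians then were −0.45 for NRF2 targets, −2.45 for plasma proteins, −0.79 for epithelial genes, 1.06 for mesenchymal genes and −1.33 for inflammatory mediators. SLC7A11, named above, was not called after that removal. The part of base composition in the other differences was not tested. Transcript type moved with it too: of 386 processed pseudogenes, 37.6% were higher and 6.99% lower, and of 599 antisense genes, 4.01% were higher and 23.5% lower. Reads of a processed pseudogene can be shared with its parent gene, and no strand setting is given in the sources used here.

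Chromosomes 8 and 20 stood apart. After the GC trend was removed, the median difference of all tested genes was −0.33 on chromosome 8 and −0.18 on chromosome 20, while the other chromosomes lay between −0.05 and 0.14. Among protein-coding genes, without that removal and against the mean of the vector libraries, the median over chromosome 8 was −0.30 in sh-NC replicate 2, −0.35 and −0.41 in sh-TAF15 replicates 2 and 3, and also −0.34 in TIF1γ replicate 2, with −0.06 in TIF1γ replicate 3. On chromosome 20 the shRNA libraries were at −0.27, −0.26 and −0.21, and the TIF1γ libraries at 0.16 and 0.08. Of 281 blocks of 40 neighbouring protein-coding genes, the lowest median after GC removal was −0.52, in the block from TOX2 to SULF2 on chromosome 20. Without that removal its median was −0.89, and 22 of its genes were called lower and 1 higher. Called shares were 16.6% lower and 12.8% higher over all tested genes, and 28.9% and 8.65% on chromosome 20. HNF4A lies inside this block. DNA copy number was not measured.

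**Figure D5:**
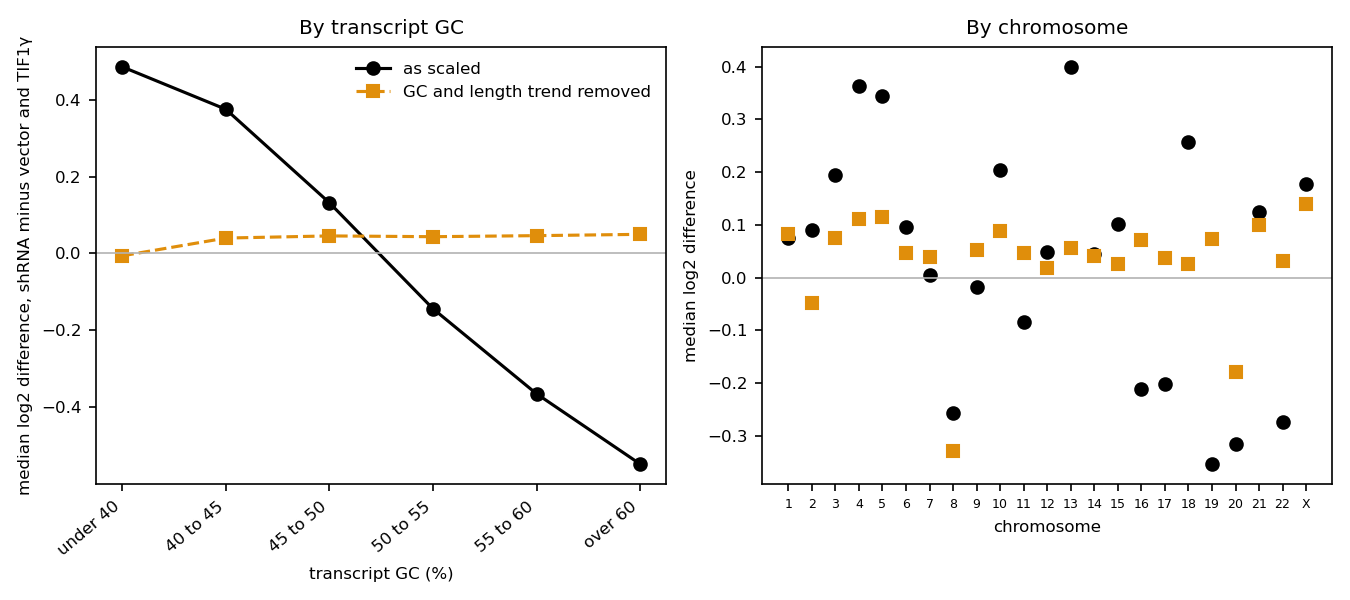
Median log2 difference (shRNA minus vector and TIF1γ) of protein-coding genes by transcript GC content (left) and of all tested genes by chromosome (right), as scaled (black circles) and with the GC and length trend removed (orange squares). The slope from 0.49 to −0.55 over GC is gone after removal, while chromosome 8 stays at −0.33.

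Whether the difference between the sets was the same in control and manipulated lines was tested with an interaction, (sh-TAF15 minus TIF1γ) minus (sh-NC minus vector), over the same genes. It gave 6 calls (0.0431%) at the adjusted threshold and 510 genes (3.67%) at an unadjusted p under 0.05 with limma. None of the 6 was a named gene. They were AL161787.1, ATP5MKP1, HSPB1P1 and AC004890.2, annotated as pseudogenes, and the identifiers ENSG00000202077 and ENSG00000269804, and they are named here after their values were seen. The test rests on a single sh-NC library, which is assumed to vary like the others. TRIM33, overexpressed in the TIF1γ line alone, had an interaction difference of −1.73 and was not among the calls. The few calls therefore do not show that the difference between the sets was the same in control and manipulated lines.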

How the data were processed

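RNA was sequenced from stable A549 lines on an Illumina HiSeq, with poly(A) mRNA isolated or ribosomal RNA depleted, per the labels' protocols. The submitters' processing notes name cutadapt 1.9.1, HISAT2 2.0.1, HTSeq 0.6.1 and GRCh37. The deposited values are FPKM without a logarithm, 57879 Ensembl genes per library, and the authors' way from reads to FPKM is not given in the sources used here. Low FPKM values fall on steps whose size gives relative depth: with vector replicate 1 as 1, the libraries lay between 0.791 and 1.04, but total reads are unknown, so no counting interval is given.

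Symbols, gene types, transcript length and GC content came from GENCODE 29 and the tables of the reference (52324 identifiers matched, 5555 not), and promoters from RefSeq. Genes at 0 in 1 library and at least 100 FPKM in another (19 genes, of which 11 would have passed the filter) were set aside. Tested genes had 1 FPKM or more in 2 or more libraries. Scaling used a trimmed mean of log2 ratios (30% of ratios and 5% of abundances trimmed), and log2 was taken with a pseudocount of 1. limma 3.58.1 in R 4.3.3 (eBayes with trend and robust) compared the sets (6 residual and 7.56 prior degrees of freedom), with Benjamini-Hochberg adjustment over all genes tested. On simulated data of 13907 genes, 100 were given a log2 change of 1 and 100 a change of 2. Of these, 41% and 93% were called, with 4 false calls. The noise was normal and drawn independently for each gene and library. Far more genes were called in the data (4089), so these shares need not hold for this comparison.

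The members and the 31 gene lists were chosen with earlier results of these data known. Named genes are TRIM33, the 4 markers, the 15 genes per direction with the largest difference among called protein-coding genes without overlap and with a mean of at least 2 FPKM in the higher set, from each list up to 3 called members per direction, by lowest adjusted p, and the A549 genes. A few genes that met this rule are not reported here. CCL5, UHRF1 and PECAM1 had no identifier found. The endothelial list had 1 tested member, ESAM, called lower. Deviations from group means were compared between samples with the same replicate number to see whether the numbers pair them. Alternatives were another pseudocount, filters, scalings, models, removal of the GC and length trend, and the replicate number as a block. Each pair of lines was also contrasted, with all libraries kept in the fit, and each library was left out.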

Additional observations from a re-analysis of the deposited data

Results flagged for a closer look

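Each of 163 named genes was checked for a library standing apart from the other 4 of the vector and TIF1γ set. The rule was a gap to its neighbour above 0.71 of the whole range, on the scale of log2(scaled FPKM + 1). The levels below are deposited FPKM, on which the gap can be smaller. Chance flags about 1 in 20 groups, and 11 genes met the rule. In 8 of the 11 the library was TIF1γ replicate 2.

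TIF1γ replicate 2 was the lowest of the 5 for SLC16A6 (0.224 FPKM, others 0.446 to 0.517), MMP7 (99.3, others 138 to 153), SLC7A11 (3.01, others 8.20 to 10.0) and PARP9 (0.833, others 2.14 to 2.77). It was also the lowest for FGF2 (1.45, others 3.08 to 3.31), FAS (0.828, others 1.81 to 2.20) and SLC2A3 (3.40, others 4.95 to 5.53). For FGFR4 it was the highest, at 52.1 FPKM beside 21.9 to 26.4 in the others. Vector replicate 3 was the lowest for AKR1C3 (1374 FPKM, others 1584 to 1757) and the highest for FPR1 (0.0284, others listed at 0). Vector replicate 2 was the highest for COL13A1, at 0.107 FPKM beside 0 to 0.0266. Each of these genes was called between the sets.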

How the results depend on the processing

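No call of the main comparison turned to a call in the opposite direction under any alternative. Of 152 named genes that were called, 103 were called in every alternative fitted. Against 1781 genes higher and 2308 lower, a mean of at least 5 FPKM gave 1128 and 1538 among fewer genes, values without scaling gave 3054 higher, and 4 groups in the fit gave 2780 higher. The control lines alone gave 506 and 1041 with fewer samples. Against 2198 and 2522 genes without overlap, a mean of at least 5 FPKM gave 1381 and 1624, values without scaling gave 3393 higher, the control lines alone gave 5109 and 5173, and the manipulated lines alone gave 4725 and 4713, with fewer libraries to keep apart. Leaving out single libraries gave 774 to 2036 genes higher, 1293 to 2428 lower, 2306 to 3397 without overlap higher, 2604 to 3582 without overlap lower, and 3 to 17 interaction calls. Without sh-TAF15 replicate 3 there were 3397 genes without overlap on the higher side. The 6 interaction calls became 3 with no filter, 17 without vector replicate 2, and 3 without either TIF1γ replicate. The interaction without sh-NC could not be fitted. Same-numbered deviations correlated at 0.17 and 0.12 between vector and TIF1γ, and at −0.37, −0.24 and −0.24 in pairs with sh-TAF15. TIF1γ and sh-TAF15 had 2 libraries each, whose deviations mirror each other, and the 1 sh-NC library could not enter. These correlations therefore cannot settle whether replicate numbers pair the samples. With the replicate block there were 1706 genes higher, 2147 lower and 31 interaction calls, and with the replicate block and the GC trend removed 1791, 1616 and 0. The crossed pairing, chosen after seeing the data, gave 2001 and 2469.

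Single genes that were not called changed sign as follows; the cause was not tested. With the GC trend removed the difference was 0.19 for STK11, 0.37 for KEAP1, 0.35 for SMARCA4, −0.035 for TXNRD1, 0.12 for KRT7 and 0.21 for LGALS1. With the replicate block as well it was 0.15 for STK11, 0.35 for KEAP1, 0.25 for SMARCA4, 0.12 for KRT7 and 0.21 for LGALS1. Unscaled values gave 0.10 for KEAP1 and 0.084 for SMARCA4. The control lines gave 0.52 for TRIM33, 0.14 for SMARCA4 and −0.26 for ALDH1A1. Leaving out single libraries gave −0.28 to 0.046 for KEAP1, −0.14 to 0.083 for SMARCA4 and −0.071 to 0.29 for NFE2L2, with the sign turned without TIF1γ replicate 2 (KEAP1, SMARCA4, NFE2L2), sh-NC replicate 2 (KEAP1) or sh-TAF15 replicate 3 (SMARCA4). Total depth is unknown, so levels near 0 carry no counting limit.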
